A study of Mus musculus with 30 samples.

Results

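The 5 large clusters of cytochrome P450 genes of the mouse were examined as targets of transposon vectors in the liver. They were delimited by position on the mouse build GRCm39, without use of any measured value. The Cyp3a cluster was taken as chr5:145200001-146100000, the Cyp2c cluster as chr19:38900001-40200000 and the Cyp4a cluster as chr4:114800001-115500000. The Cyp2d cluster was taken as chr15:82100001-82450000 and the Cyp2a-Cyp2b cluster as chr7:25500001-26900000. Together they span 4.65 Mb and held 8134 of the 2181704 nuclear insertion sites of the series. Of these, 4744 came from livers treated with piggyBac (PB) vectors, or 0.385% of all PB sites, and 3390 from livers treated with Sleeping Beauty (SB) vectors, or 0.357% of all SB sites.

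The livers came from Fah knockout mice, in which tyrosine cannot be broken down to its end because fumarylacetoacetate hydrolase is missing. They serve as a model of tyrosinemia type I (TT1). All animals carried this defect and all received a transposon gene therapy in vivo, 17 with PB and 13 with SB, so there is no untreated group. DNA of whole livers was taken when monitoring ended, and insertion sites were read by streptavidin-based enrichment sequencing (SBE-seq), which amplifies the junction of transposon and genome. Strain, sex, age, vector dose and time of sampling are not given in the labels used here. Whole liver holds several cell types, and corrected hepatocytes can multiply in this model, so a site list reflects insertion as well as which cells were present at sampling. These cannot be told apart here.

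Cytochrome P450 enzymes are haem proteins of the endoplasmic reticulum that oxidise drugs, steroids and fatty acids, and hepatocytes are their main site of expression. Their genes arose by repeated duplication and lie in tandem arrays of close relatives and pseudogenes. Cyp3a enzymes metabolise many drugs and steroids, Cyp2c enzymes drugs and arachidonic acid, and Cyp4a enzymes hydroxylate the end of fatty acid chains. Cyp2b genes are classical targets of the xenobiotic receptor CAR, Cyp2a enzymes include coumarin and steroid hydroxylases, and the Cyp2d family is related to the human debrisoquine hydroxylase CYP2D6. PB transposase inserts at the tetranucleotide TTAA and SB transposase at the dinucleotide TA. The deposited PB sites span 4 bp and the SB sites 2 bp.

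The RefSeq gene table used for names describes the older build GRCm38.p6. It lists 80 P450 genes and pseudogenes under the symbols of these families, 53 of them protein-coding, and it was used for names and order only. The Cyp3a array runs from Cyp3a57 through Cyp3a11 and Cyp3a25 to Cyp3a59. In the Cyp2c array Cyp2c29 and Cyp2c39 follow Cyp2c55, Cyp2c65 and Cyp2c66, and Cyp2c70 comes last. Sites were not assigned to single genes, exons or introns, since gene positions on GRCm39 were not used here. For the same reason it was not checked which genes of an array lie inside its cluster window. Part of an array may lie in the flanks.

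Promoters were set out to show how unevenly the PB target letters are spread among these arrays. The RefSeq promoter table holds 250 bases before to 50 bases after a gene's start on GRCm38.p6, and it matched 42 of the 53 coding genes with 44 starts. The motif searched was TTAA, which reads the same on both strands. It occurred in 52.4% of the 32817 promoters of the table, and in 30 of the 44 P450 promoters (68.2%). By array it occurred in 13 of 14 Cyp2c promoters, 4 of 4 Cyp4a, 8 of 12 Cyp2a-Cyp2b, 4 of 9 Cyp3a and 1 of 5 Cyp2d promoters. Only 4 of 10 coding genes of the Cyp4a array and 5 of 8 of the Cyp2d array were matched. An array can hold other subfamilies, such as Cyp4x1 and Cyp4b1 in that of Cyp4a. A Cyp2c promoter held 2.43 matches on average and a Cyp2d promoter 0.40. A match in these windows is a description of letters and no insertion site. A promoter from each array is printed 5′ to 3′, on the older build and not on that of the insertion sites, with TTAA in capitals. Cyp2c29 and Cyp4a32 hold 2 matches each. Cyp3a11, Cyp2d9 and Cyp2b10 hold 0 within these 300 bases.
Cyp3a11, chr5:145879805-145880104, minus strand: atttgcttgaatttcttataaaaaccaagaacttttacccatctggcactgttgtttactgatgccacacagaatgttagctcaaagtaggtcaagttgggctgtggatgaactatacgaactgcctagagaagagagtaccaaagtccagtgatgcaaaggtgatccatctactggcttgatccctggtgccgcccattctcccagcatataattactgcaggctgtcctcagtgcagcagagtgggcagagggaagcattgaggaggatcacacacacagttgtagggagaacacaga
Cyp2c29, chr19:39286835-39287134, plus strand: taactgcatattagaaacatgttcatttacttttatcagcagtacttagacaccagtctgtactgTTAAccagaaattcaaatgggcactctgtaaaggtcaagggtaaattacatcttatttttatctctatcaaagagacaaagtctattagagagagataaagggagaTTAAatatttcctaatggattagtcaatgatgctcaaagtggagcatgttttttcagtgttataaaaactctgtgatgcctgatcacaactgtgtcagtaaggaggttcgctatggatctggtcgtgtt
Cyp4a32, chr4:115600688-115600987, plus strand: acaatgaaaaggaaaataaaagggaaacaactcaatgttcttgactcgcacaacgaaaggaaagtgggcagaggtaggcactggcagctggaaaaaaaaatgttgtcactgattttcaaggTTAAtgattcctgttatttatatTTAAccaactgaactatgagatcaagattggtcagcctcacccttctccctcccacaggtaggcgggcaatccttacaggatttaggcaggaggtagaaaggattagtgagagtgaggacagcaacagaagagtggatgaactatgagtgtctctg
Cyp2d9, chr15:82452127-82452426, plus strand: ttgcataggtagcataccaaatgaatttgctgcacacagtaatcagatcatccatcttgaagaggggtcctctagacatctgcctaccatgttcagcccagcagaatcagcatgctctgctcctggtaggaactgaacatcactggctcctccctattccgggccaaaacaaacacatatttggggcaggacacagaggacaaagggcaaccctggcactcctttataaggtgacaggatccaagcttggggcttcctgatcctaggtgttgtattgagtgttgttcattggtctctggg
Cyp2b10, chr7:25897408-25897707, plus strand: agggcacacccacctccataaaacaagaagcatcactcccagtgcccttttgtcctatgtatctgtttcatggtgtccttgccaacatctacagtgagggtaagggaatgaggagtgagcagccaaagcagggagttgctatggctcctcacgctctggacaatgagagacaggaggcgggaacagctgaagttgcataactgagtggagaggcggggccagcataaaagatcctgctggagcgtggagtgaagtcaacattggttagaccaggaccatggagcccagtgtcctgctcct

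PB livers held between 16364 and 124238 nuclear sites (median 71303) and SB livers between 4893 and 120219 (median 80254). A liver contributed 65 to 522 sites to the clusters in PB and 22 to 438 in SB. SB liver 13 stands apart by its depth of 4893 sites, and with 2 to 9 sites in 4 clusters and 0 in Cyp4a its densities carry a large counting error. Mean cluster densities in which it was the highest or lowest SB liver are given with and without it.

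Density was measured as the sites of a cluster per 10000 nuclear sites of the liver and per Mb. In the Cyp3a cluster PB livers ran from 4.35 to 15.8 (median 9.38) and SB livers from 6.56 to 20.4 (median 8.59). The group means were 9.12 ± 2.51 (SD, n = 17) and 9.47 ± 3.50 (SD, n = 13). The highest SB value is that of SB liver 13, which rests on 9 sites and has an exact 95% Poisson interval of 9.35 to 38.8. Over livers 1 to 12 the SB mean was 8.55 ± 1.24 (SD, n = 12) against 9.02 ± 1.40 in PB (SD, n = 12). The groups overlapped over almost their whole range.

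By mean, the Cyp2c cluster was the densest of the 5 in PB, with 7.24 to 11.6 per liver (median 10.4) and a mean of 9.94 ± 1.37 (SD, n = 17). SB livers ran from 7.48 to 10.6 (median 8.53), with a mean of 8.80 ± 0.989 (SD, n = 13). The upper part of the PB range lies above all SB livers, while the lower part overlaps them. The PB livers with the lowest values were livers 13, 14 and 16, which are among the 5 of least depth.

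By mean, the Cyp4a cluster was the least dense of the 5 in PB. PB livers ran from 3.56 to 7.33 (median 5.48, mean 5.56 ± 0.837, SD, n = 17). SB livers ran from 0 to 10.5 (median 6.46, mean 6.43 ± 2.48, SD, n = 13). The 0 belongs to SB liver 13, where a count of 0 allows a density of up to 8.76 by the 3-count limit. The exact 95% Poisson interval, as used for Cyp3a, reaches up to 10.8. Without that liver, SB livers 1 to 12 averaged 6.97 ± 1.62 (SD, n = 12), and the least dense of them lay at 4.34. Over all 13 SB livers Cyp4a had the lowest mean of the 5 clusters, but over livers 1 to 12 Cyp2d (6.89) and Cyp2a-Cyp2b (6.66) lay below it.

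In the Cyp2d cluster, the shortest at 0.35 Mb, PB livers ran from 4.51 to 13.2 (mean 7.74 ± 2.36, SD, n = 17) and SB livers from 4.04 to 11.7 (mean 7.26 ± 1.91, SD, n = 13). These values rest on 3 to 37 sites per PB liver and 2 to 26 per SB liver. In the Cyp2a-Cyp2b cluster PB livers ran from 5.81 to 10.2 (mean 7.57 ± 1.24, SD, n = 17) and SB livers from 4.80 to 8.76 (mean 6.82 ± 1.09, SD, n = 13). In both clusters the highest SB value was that of SB liver 13, from 2 sites in Cyp2d and 6 in Cyp2a-Cyp2b. Over livers 1 to 12 the highest SB values were 9.82 and 8.20. The SB means were then 6.89 ± 1.44 in Cyp2d and 6.66 ± 0.966 in Cyp2a-Cyp2b (SD, n = 12). The groups overlapped in both clusters.

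All 5 clusters lay in the dense part of the genome. Among 2575 other windows of up to 1 Mb, the median window had a density of 3.34 in PB and 3.64 in SB. The PB means of the clusters exceeded between 75.5% (Cyp4a) and 97.4% (Cyp2c) of these windows, and the SB means between 90.2% (Cyp4a) and 99.9% (Cyp3a). This is a description of their place in the genome, with no test.

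**Figure D1:**
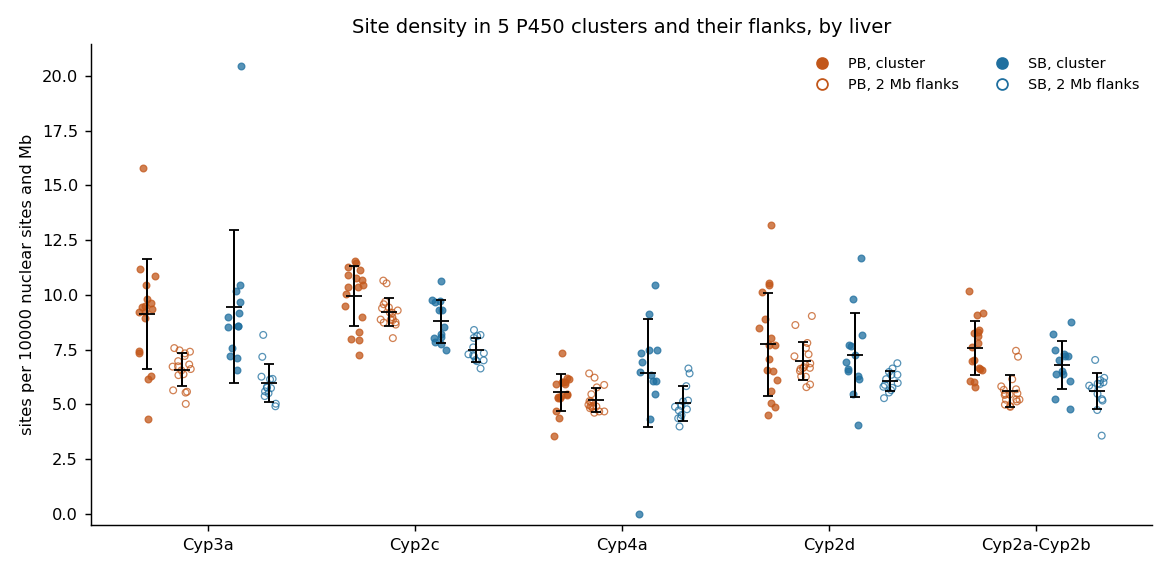
Sites per 10000 nuclear sites and Mb (vertical axis) in each P450 cluster (filled) and in the 2 Mb on each side of it (open), for 17 PB and 13 SB livers. Points are livers, and bars show the mean and SD. SB liver 13 gives the highest Cyp3a value (20.4) and the 0 in Cyp4a.

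Whether PB and SB differ in the clusters was tested with limma-voom over 2583 features of the genome, with Benjamini-Hochberg adjustment over all of them. Differences are log2 of PB over SB density. Across all features the median difference was -0.16, and 19.4% of features were called higher in PB and 38.8% higher in SB. Of the 5 clusters, only Cyp2c passed, with PB 1.15-fold denser (log2 difference 0.20 ± 0.069 SE, adjusted p = 0.0099). Cyp4a pointed the other way at -0.22 ± 0.10 SE without passing (adjusted p = 0.053). The differences were 0.07 ± 0.089 SE for Cyp3a (adjusted p = 0.52), 0.14 ± 0.13 SE for Cyp2d (adjusted p = 0.33) and 0.14 ± 0.077 SE for Cyp2a-Cyp2b (adjusted p = 0.096). So 1 of 5 clusters was called higher in PB and 0 of 5 higher in SB by limma-voom, where Cyp4a alone had an unadjusted p under 0.05 in that direction (p = 0.031 before adjustment in limma). The count in PB lies near the background share.

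The zero of this scale matters. Relative to the median feature, Cyp2c lay 0.37 higher in PB, Cyp2d and Cyp2a-Cyp2b 0.31 each and Cyp3a 0.23, and all 4 passed with the fit centred there (adjusted p = 0.033 for Cyp2d, 0.00057 for Cyp2a-Cyp2b and 0.023 for Cyp3a). Cyp4a then lay at -0.06. Centring moves every feature towards PB. The shares of features called above belong to the uncentred fit, and those of the centred fit are not given here. Cyp4a passed as lower in PB when SB liver 13 was left out (-0.24, adjusted p = 0.029) and with edgeR's quasi-likelihood test (-0.26, adjusted p = 0.019). The Cyp2c call was lost with limma-trend (0.16, adjusted p = 0.062) and when positions found in more than 1 liver were removed (0.07, adjusted p = 0.61).

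Each cluster was next set against the 2 Mb on each side, which held 27702 sites in all. The same ratio was fitted for 2582 features with limma on log2 ratios, with 0.5 added to each count. In PB 36.9% of features were higher than their flanks and 49.0% lower, and in SB 33.5% and 40.4%, so most features of the genome differ from their surroundings. The median feature lay at -0.16 in PB and -0.05 in SB.

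The Cyp3a cluster stood 1.38-fold above its flanks in PB (log2 0.46 ± 0.061 SE, adjusted p = 1.2e-11) and 1.46-fold in SB (0.54 ± 0.072 SE, adjusted p = 5.0e-11). It was denser than its flanks in 14 of 17 PB and 13 of 13 SB livers. The PB value depended on the surroundings taken, with 0.18 against flanks of 1 Mb (adjusted p = 0.0085), 0.66 against 5 Mb and 0.89 with the cluster widened by 100 kb on each side, while the SB value stayed between 0.52 and 0.61 in these settings. The Cyp2a-Cyp2b cluster stood 1.36-fold above its flanks in PB (0.44 ± 0.054 SE, adjusted p = 9.7e-13), in 17 of 17 livers. In SB it stood 1.19-fold above them (0.25 ± 0.064 SE, adjusted p = 0.00033), in 10 of 13 livers. Against flanks of 1 Mb the PB value was 0.32 and the SB value 0.11 (adjusted p = 0.14), and against 5 Mb the values were 1.05 in PB and 0.84 in SB.

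For the Cyp2c cluster, the flanks of PB livers held 9.22 ± 0.654 sites per 10000 and Mb (SD, n = 17), those of SB livers 7.47 ± 0.549 (SD, n = 13). The cluster stood 1.12-fold above them in PB (0.16 ± 0.044 SE, adjusted p = 0.00065) and 1.17-fold in SB (0.23 ± 0.055 SE, adjusted p = 1.0e-04). It was denser than its flanks in 10 of 17 PB and 12 of 13 SB livers. Both values were larger against flanks of another width, at 0.47 in PB and 0.36 in SB for 1 Mb and 0.36 and 0.42 for 5 Mb. With the cluster widened by 100 kb on each side the PB value was 0.29, and with shared positions (those of more than 1 liver) removed it was 0.30.

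The Cyp4a cluster marks a step in density. The 2 Mb before it held 1.80 ± 0.347 in PB and 2.33 ± 0.456 in SB, and the 2 Mb after it 8.60 ± 0.988 and 7.79 ± 1.62 (SD, n = 17 PB and 13 SB livers). Against the mean of both sides it stood 1.12-fold higher in PB (0.16 ± 0.076 SE, adjusted p = 0.044) and 1.33-fold in SB (0.42 ± 0.081 SE, adjusted p = 2.8e-06). With the window widened by 100 kb on each side the PB value was 0.0072 (adjusted p = 0.93), and with sites of at least 10 reads only it was 0.15 (adjusted p = 0.076). Other flank widths gave larger values, 0.33 in PB and 0.45 in SB for 1 Mb and 0.61 and 0.66 for 5 Mb. With shared positions removed the PB value was 0.33.

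The Cyp2d cluster did not pass in either group, at 1.12-fold in PB (0.16 ± 0.087 SE, adjusted p = 0.075) and 1.13-fold in SB (0.18 ± 0.10 SE, adjusted p = 0.12). Its flanks are uneven too, with 9.65 ± 1.13 before and 4.31 ± 1.05 after it in PB (SD, n = 17), and its value turned with their width. Against 1 Mb it was -0.30 in PB (adjusted p = 0.0015) and -0.13 in SB (adjusted p = 0.28), and against 5 Mb 0.47 (adjusted p = 2.3e-07) and 0.35 (adjusted p = 0.0011).

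**Figure D2:**
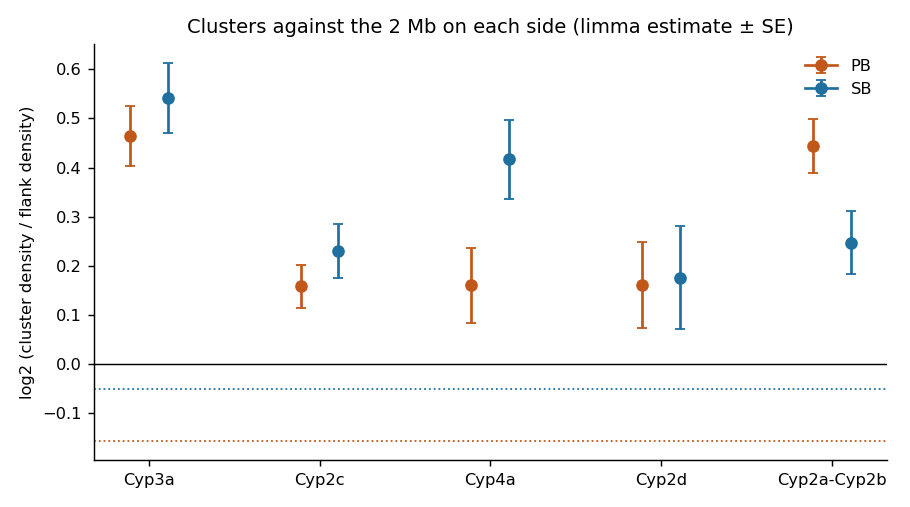
log2 of cluster density over the density of the 2 Mb on each side (vertical axis; limma estimate ± SE over 17 PB and 13 SB livers). Dotted lines mark the median feature of the genome, -0.16 in PB and -0.05 in SB. All 10 estimates lie above 0, and those of Cyp2d did not pass the test.

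The difference of these ratios between PB and SB was tested directly. Across the genome 20.7% of features had a higher ratio in PB and 31.6% a lower one, with a median of -0.11. The ratio of Cyp4a was lower in PB (-0.26 ± 0.11 SE, adjusted p = 0.045) and that of Cyp2a-Cyp2b higher (0.20 ± 0.084 SE, adjusted p = 0.041). Cyp3a (-0.08 ± 0.094 SE, adjusted p = 0.51), Cyp2c (-0.07 ± 0.070 SE, adjusted p = 0.40) and Cyp2d (-0.01 ± 0.14 SE, adjusted p = 0.94) did not pass. Both calls lie close to the threshold and were lost under several alternatives. The Cyp4a difference was -0.13 with flanks of 1 Mb (adjusted p = 0.40) and -0.05 with flanks of 5 Mb (adjusted p = 0.71). The Cyp2a-Cyp2b difference was 0.15 with wider cluster windows (adjusted p = 0.12).

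Within a cluster the sites were spread unevenly, and more so in PB. Clusters were divided into 47 windows of 100 kb, of which the last in Cyp2d extends past the cluster. The densest whole window held between 4.56 times (Cyp3a) and 7.81 times (Cyp2c) the sites of the least dense in PB. In SB this ratio ran from 1.11 (Cyp2d) to 2.46 (Cyp3a). The coefficient of variation beyond counting error was 0.439 to 0.709 in PB and 0 to 0.212 in SB. The median 1 Mb window of the genome had 0.663 in PB and 0.321 in SB, so the spread inside the clusters was not above that of the genome except for Cyp2d in PB, whose 3 windows give 0.709. Over the 46 whole windows, PB and SB site numbers were related with Pearson r = 0.51 and Spearman rho = 0.51, as a description. Neighbouring windows are not independent, and the groups share no library.

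Windows were compared between PB and SB with limma-voom over 20887 windows of the genome. Of the 47 windows in the clusters, 11 were higher in PB and 11 higher in SB (23.4% each). In the genome 10.3% of windows were higher in PB and 14.5% higher in SB. No background of like density was taken, and the clusters are denser than most of the genome, so these shares are not on equal terms. The median log2 difference over the windows of the genome was -0.33. With the fit centred on that median, 19 were higher in PB and 4 in SB. The genome moved the same way, with 3583 windows higher in PB and 791 in SB of 20887. When positions found in 5 or more livers were removed, 7 and 6 of these windows remained. In the genome 1599 and 1405 of 20877 windows then passed. In the clusters that removal took out PB sites only. When all positions found in more than 1 liver were removed, 0 and 0 passed limma-voom, and 5 and 6 had an unadjusted p under 0.05. In the genome 343 and 80 of 20493 windows passed. That setting takes out far more PB than SB sites and does not compare the groups on equal terms.

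In the Cyp3a cluster PB sites were concentrated towards the far end. PB sites were most frequent at 145.9 to 146.0 Mb, with 1 to 27 per liver (median 11) and 1.46 ± 0.647 per 10000 (SD, n = 17). SB livers held 1 to 13 sites there (median 5). PB was 1.78-fold denser (log2 difference 0.83 ± 0.21 SE, adjusted p = 0.0019). The window before it, 145.8 to 145.9 Mb, was 1.67-fold denser in PB (0.74 ± 0.21 SE, adjusted p = 0.0045). The opposite held at 145.3 to 145.4 Mb, where SB was 1.79-fold denser (-0.84 ± 0.27 SE, adjusted p = 0.016). The densest SB window was 145.5 to 145.6 Mb, with 3 to 15 sites per liver (median 9) and 123 in all, against 138 in PB. Both groups had their least dense window at 145.4 to 145.5 Mb, with 41 PB and 50 SB sites.

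At the edges of this cluster PB was denser still before it, and about as dense after it as in the densest window inside. The 100 kb before it held 241 PB and 88 SB sites (log2 difference 1.00 ± 0.19 SE, adjusted p = 1.8e-05), and the 100 kb after it 189 and 77 (0.89 ± 0.20 SE, adjusted p = 0.00042). The densest PB window inside held 187. With both edges included, the Cyp3a density was higher in PB by 0.30 (adjusted p = 0.00037) and its ratio to the flanks by 0.28 (adjusted p = 0.0023). The sign of the latter depended on the surroundings taken. PB minus SB of the ratio was -0.08 in the main fit (limma adjusted p = 0.51). With flanks of 1 Mb it was -0.35 (limma adjusted p = 0.0033).

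The Cyp2c cluster alternated between stretches rich and poor in PB sites, with 5 windows higher in PB and 3 higher in SB. PB sites were most frequent in the first window, 38.9 to 39.0 Mb, with 0 to 26 per liver (median 13) and 1.68 ± 0.918 per 10000 (SD, n = 17). SB livers held 0 to 11 there (median 8), and PB was 1.64-fold denser (0.72 ± 0.21 SE, adjusted p = 0.0088). The poorest PB window, 39.1 to 39.2 Mb, lies 100 kb further on, with 0 to 4 sites per liver (median 1). SB livers held 0 to 12 there (median 5) and were 2.86-fold denser, the largest difference of all windows of the clusters (-1.51 ± 0.31 SE, adjusted p = 1.0e-04). The window between them, 39.0 to 39.1 Mb, was 2.05-fold denser in SB (-1.03 ± 0.28 SE, adjusted p = 0.0038).

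A second such contrast lay near the middle of the Cyp2c cluster window. At 39.4 to 39.5 Mb PB was 1.59-fold denser (0.67 ± 0.22 SE, adjusted p = 0.020), and in the next window SB was 1.78-fold denser (-0.83 ± 0.25 SE, adjusted p = 0.0090). Without positions found in 5 or more livers the difference at 39.4 to 39.5 Mb was 0.35 (limma-voom adjusted p = 0.33). In the clusters no SB position was found in 5 or more livers, so this setting takes out PB sites only there. It does not compare the groups on equal terms. The PB excess also passed at 39.8 to 39.9 Mb (0.65 ± 0.21 SE, adjusted p = 0.018), where 94 SB and 198 PB sites lay. By mean per liver the densest SB window was 39.5 to 39.6 Mb, with 1.47 ± 2.05 per 10000 (SD, n = 13). That mean rests on 4 sites of SB liver 13 and was 0.906 ± 0.380 without it (SD, n = 12). By summed sites the densest SB window was 39.9 to 40.0 Mb, with 107.

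In the Cyp4a cluster no window was higher in PB and 2 were higher in SB. The window 115.2 to 115.3 Mb was the poorest in PB, with 0 to 5 sites per liver (median 1), against 0 to 6 in SB (median 4). SB was 2.34-fold denser there (-1.23 ± 0.33 SE, adjusted p = 0.0038). At 114.9 to 115.0 Mb SB was 1.80-fold denser (-0.84 ± 0.28 SE, adjusted p = 0.020). PB sites peaked in the first window, 114.8 to 114.9 Mb, where 139 were found (median 9 per liver). It held 81 SB sites (median 6), as many as the last window, 115.4 to 115.5 Mb (81, median 7), and these lead in SB with nearly equal means. The difference between PB and SB in the first window did not pass (0.38 ± 0.22 SE, adjusted p = 0.18).

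The Cyp2d cluster split within 200 kb. At 82.1 to 82.2 Mb PB livers held 0 to 5 sites (median 2) and SB livers 0 to 8 (median 4), and SB was 2.22-fold denser (-1.15 ± 0.29 SE, adjusted p = 0.0017). At 82.2 to 82.3 Mb PB livers held 1 to 21 sites (median 9) and SB livers 1 to 10 (median 4), and PB was 1.91-fold denser (0.93 ± 0.22 SE, adjusted p = 0.00079). In SB these windows differed little, with 62 and 66 sites in all, whereas PB had 34 and 171.

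In the Cyp2a-Cyp2b cluster PB sites were dense at both ends and sparse in the middle. PB sites were most frequent in the last window, 26.8 to 26.9 Mb, with 0 to 25 per liver (median 10), and PB was 2.20-fold denser than SB (1.14 ± 0.24 SE, adjusted p = 0.00016). The first window, 25.5 to 25.6 Mb, held 152 PB and 78 SB sites, and PB was 1.62-fold denser there (0.70 ± 0.23 SE, adjusted p = 0.018). It had the highest SB mean of the cluster over all livers, 0.918 per 10000, but not without SB liver 13, where it averaged 0.824 and the window 25.9 to 26.0 Mb led with 0.847. The latter also held the most SB sites (83). At 26.5 to 26.6 Mb PB was 1.95-fold denser (0.97 ± 0.28 SE, adjusted p = 0.0068). From 26.55 to 26.66 Mb the cluster was nearly empty, with 7 PB and 3 SB sites. The 108 PB and 39 SB sites of this window thus lie almost all before 26.55 Mb.

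From 26.1 to 26.4 Mb all 3 windows were higher in SB. They held 29, 32 and 32 PB sites and 60, 53 and 45 SB sites. The largest difference was at 26.1 to 26.2 Mb, where SB was 2.55-fold denser (-1.35 ± 0.30 SE, adjusted p = 0.00031). The others were 1.97-fold (-0.98 ± 0.33 SE, adjusted p = 0.022) and 1.77-fold (-0.82 ± 0.32 SE, adjusted p = 0.048). Nearer the start of the cluster, at 25.9 to 26.0 Mb, SB was also denser, 1.94-fold (-0.96 ± 0.27 SE, adjusted p = 0.0054).

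Not all of these 22 calls were equally firm. Apart from the setting without positions found in more than 1 liver, 4 other settings were run, and 11 of the 22 windows kept their call in all 4. These are the windows starting at 145.8 and 145.9 Mb in Cyp3a, 38.9, 39.1 and 39.7 Mb in Cyp2c, 115.2 Mb in Cyp4a, 82.1 and 82.2 Mb in Cyp2d, and 26.1, 26.5 and 26.8 Mb in Cyp2a-Cyp2b. Without positions in 5 or more livers, calls were lost at 145.3 Mb (adjusted p = 0.085), 39.4 Mb (0.33), 39.5 Mb (0.060), 39.8 Mb (0.058), 40.1 Mb (0.063), 114.9 Mb (0.097), 25.5 Mb (0.084), 26.2 Mb (0.091) and 26.3 Mb (0.17). With the fit centred on the median window, they were lost at 145.3 Mb (adjusted p = 0.19), 39.0 Mb (0.060), 39.5 Mb (0.15), 114.9 Mb (0.21), 25.9 Mb (0.087), 26.2 Mb (0.17) and 26.3 Mb (0.31). Over livers 1 to 12 alone the call at 26.2 Mb was lost (adjusted p = 0.067). These p are limma-voom's, adjusted over all windows. Centring moves every difference towards PB. With it all 11 windows higher in PB kept their call, against 4 of the 11 higher in SB. Removing positions in 5 or more livers takes out PB sites only in the clusters. Keeping a call in all 4 settings is thus not equally demanding for both directions.

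**Figure D3:**
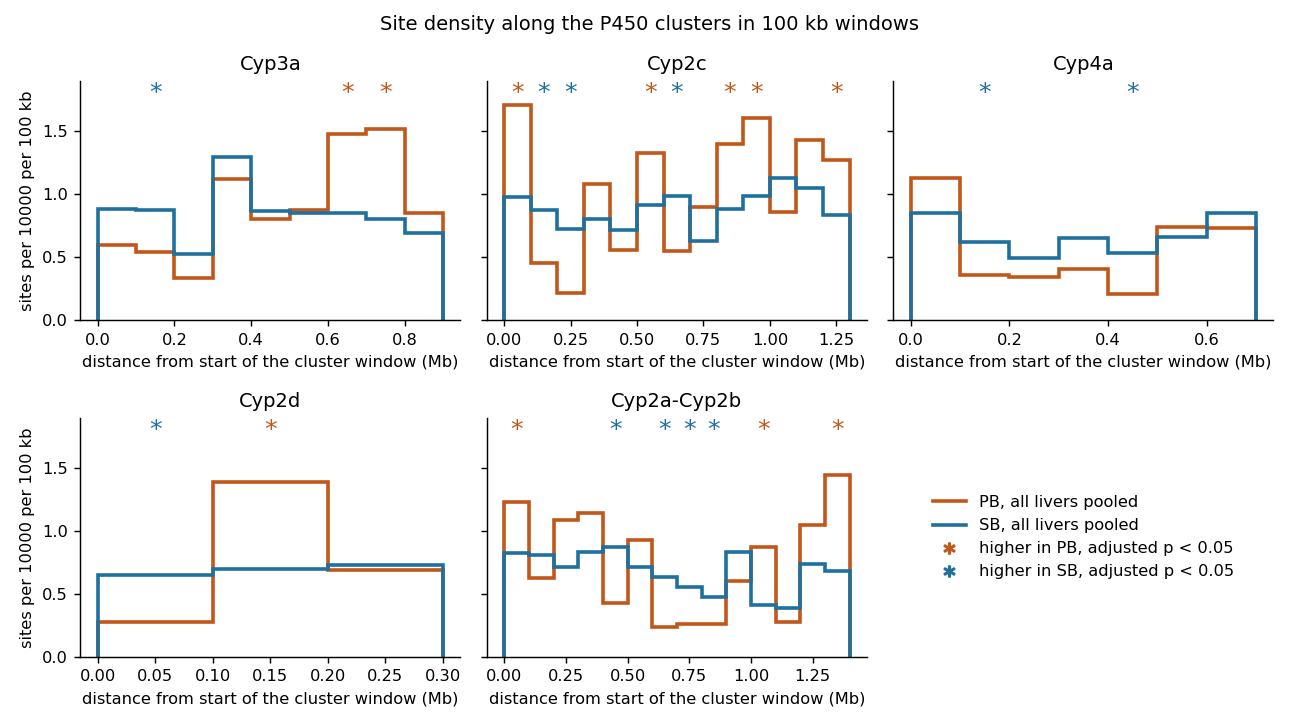
Sites per 10000 nuclear sites in 100 kb windows along each cluster (vertical axis), against the distance from the start of the cluster in Mb, all 17 PB and all 13 SB livers summed. Stars mark windows called by limma-voom in the colour of the denser group. The PB line swings between 0.219 and 1.71 in Cyp2c, where the SB line stays between 0.632 and 1.13; the partial last window of Cyp2d is not drawn.

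Stretches with few or no sites were sought in bins of 10 kb. Along the autosomes 16.9% of bins held no site in any PB liver and 10.5% none in any SB liver. In the clusters between 0.769% (Cyp2c) and 7.86% (Cyp2a-Cyp2b) of bins were empty in PB. In SB 0% were empty in Cyp2c, Cyp4a and Cyp2d, 3.33% in Cyp3a and 7.86% in Cyp2a-Cyp2b. The clusters thus had fewer empty bins than the autosomes, as a description.

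A pair of gaps was shared by both systems. Gaps are counted from the first base of the site that bounds them, so each printed interval starts on that site. In the Cyp3a cluster no further site of either group lay in the 33.9 kb of chr5:145417791-145451704. In the Cyp2a-Cyp2b cluster no further site lay in the 39.2 kb of chr7:26555260-26594454. This gap belongs to a sparse stretch of 110 kb, 26.55 to 26.66 Mb, with at most 2 sites per 10 kb bin and 7 PB and 3 SB sites in all. In the Cyp2c, Cyp4a and Cyp2d clusters the longest gap common to both groups was 11.5, 10.2 and 7.15 kb. Within 1 group the longest gap was 66.3 kb in SB, chr7:26596975-26663276 in Cyp2a-Cyp2b, and the longest in PB was 49.6 kb in the same cluster. Gaps of PB reached 36.6 kb in Cyp3a, 23.7 kb in Cyp4a, 23.3 kb in Cyp2d and 13.9 kb in Cyp2c. Those of SB reached 34.1 kb in Cyp3a, 12.8 kb in Cyp2c, 11.4 kb in Cyp4a and 9.24 kb in Cyp2d.

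Sites fell about equally on both strands. Summed over livers, 46.5% (Cyp4a) to 50.0% (Cyp3a) of PB sites in a cluster were on the plus strand, and 45.8% (Cyp2d) to 50.9% (Cyp2a-Cyp2b) of SB sites. Over the whole genome PB livers averaged 49.0 ± 0.449% (SD, n = 17) and SB livers 48.7 ± 0.852% (SD, n = 13). The Cyp4a sites of single PB livers ranged from 14.3% to 66.7%, and the Cyp2d sites from 16.7% to 73.3%, in livers with at least 5 sites.

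No cluster passed a limma test on log2 of plus over minus sites in any of 3 contrasts over 2536 features, and none had an unadjusted p under 0.05. The lowest unadjusted p values were 0.22 for PB against SB, 0.16 for PB against its genome value and 0.24 for SB against its own. In the genome 0.0789%, 0% and 0.158% of features passed these contrasts, and 142, 166 and 147 features had an unadjusted p under 0.05. The largest departure in PB was that of Cyp4a, with a log2 of -0.17 ± 0.14 SE (adjusted p = 0.90).

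Many PB sites in the clusters recurred between livers. A site was called reused when another liver of its group had a site at the same position and strand. In PB, 30.9 ± 8.22% of a liver's sites in Cyp3a were reused, 34.2 ± 8.25% in Cyp2c and 36.0 ± 7.36% in Cyp2a-Cyp2b (SD, n = 17). The share was lowest in Cyp4a, at 21.3 ± 9.31%, and highest in Cyp2d, at 45.7 ± 11.2% (SD, n = 17). Over the whole nuclear genome it was 29.3 ± 1.37%. The flanks had 38.4 ± 3.23% for Cyp3a, 37.7 ± 3.03% for Cyp2c, 33.7 ± 6.90% for Cyp4a, 39.5 ± 4.03% for Cyp2d and 39.8 ± 4.69% for Cyp2a-Cyp2b. Cyp2d alone lay above its flanks, and Cyp4a lay furthest below them.

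In SB reuse was rare. It was 5.35 ± 2.84% in Cyp3a, 3.44 ± 1.74% in Cyp2a-Cyp2b and 2.45 ± 1.39% in Cyp2c (SD, n = 13), 1.64 ± 2.25% in Cyp4a (SD, n = 12) and 0% of 225 sites in Cyp2d. The genome value was 2.13 ± 0.150%. The share of a liver depends on the other livers of its group, on their number and on depth, so these values were not tested between groups.

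**Figure D4:**
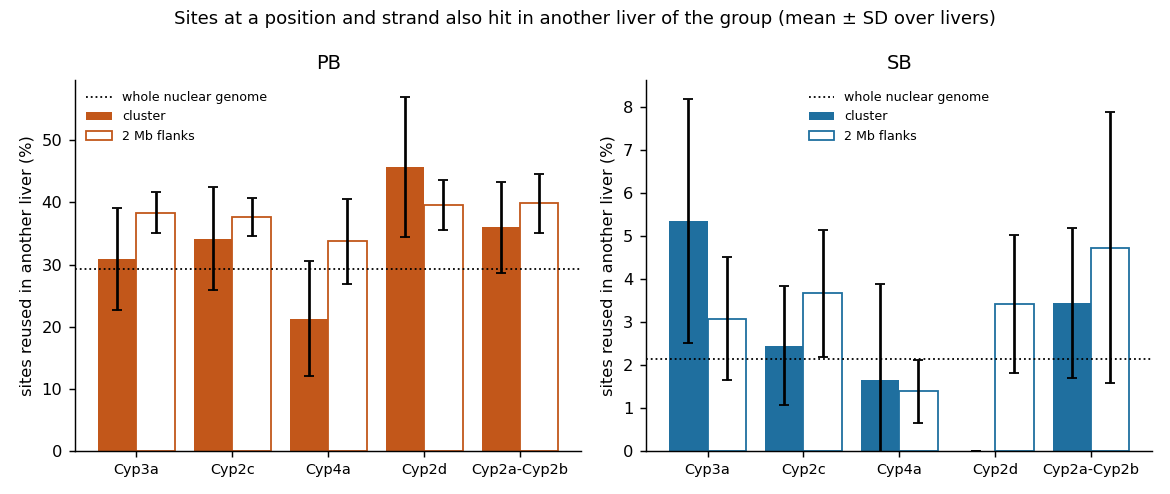
Share of a liver's sites whose position and strand recur in another liver of the group (vertical axes, in percent; the scales differ), for PB (left) and SB (right). Bars show the mean and SD over livers in the cluster (filled) and the 2 Mb on each side (open), and the dotted line marks the whole nuclear genome. In PB the Cyp2d bar exceeds that of its flanks (45.7% against 39.5%).

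With strand disregarded, the PB sites of the 5 clusters lay at 3302 positions and the SB sites at 3293. Of the PB positions, 18.4% (Cyp4a) to 31.6% (Cyp2d) were found in at least 2 livers. Of the SB positions, 0.897% (Cyp2d) to 3.58% (Cyp3a) were. PB positions in 5 or more livers numbered 23 in Cyp2c, 18 in Cyp2a-Cyp2b, 15 in Cyp3a, 7 in Cyp2d and 5 in Cyp4a. The number was 0 in each cluster in SB. In 11 PB livers a Cyp2c position carried sites on both strands, 44 times in all. Flank and genome values of these position counts are not given here, so they do not set the clusters apart.

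The most reused position of the clusters was chr19:39499255-39499258 in Cyp2c, found in 11 of 17 PB livers. It had 16 records, 10 on the plus and 6 on the minus strand, so 5 were second strands of the same livers. Here a record is a site of a liver, and its support is the whole number listed with it, taken as reads. Support ran from 22 to 174 (median 56), so the records were not confined to the lowest support. The next most reused positions of the cluster lie within 2 kb of it. They are chr19:39497864-39497867, in 10 livers, and chr19:39499534-39499537, in 9. All 3 fall in the last 3 kb of the window that was denser in PB at 39.4 to 39.5 Mb.

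In Cyp2d chr15:82235943-82235946 was found in 9 of 17 PB livers, with a support of 10 to 242 (median 58). In Cyp2a-Cyp2b 3 positions were found in 9 livers each, with 10 records each. The first by rank was chr7:25547540-25547543, with 4 plus and 6 minus records and a median support of 58. The others were chr7:26815689-26815692 and chr7:26758660-26758663. In Cyp3a chr5:145254256-145254259 was found in 8 livers, with a median support of 79. In Cyp4a chr4:115371583-115371586 was found in 6 livers, and so was chr4:114844893-114844896. All 5 clusters thus had PB positions shared by at least 6 of 17 livers. How common such positions are elsewhere in the genome is not given here.

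In SB the most reused position was chr7:25653052-25653053 in Cyp2a-Cyp2b, found in 3 of 13 livers, all on the minus strand and with a support of 3 to 12. In the other clusters no SB position was found in more than 2 livers. There the first by rank were chr5:145994762-145994763 in Cyp3a, chr19:39348539-39348540 in Cyp2c, chr4:114865054-114865055 in Cyp4a and chr15:82213251-82213252 in Cyp2d. PB and SB hardly shared positions. An SB site lay on the middle TA of a PB target at 5 positions, or 0.151% of the PB and 0.152% of the SB positions, with 2 of them in Cyp2a-Cyp2b and 0 in Cyp4a.

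The fullest span of 3 kb in each cluster was chosen for its count and is given as a description. In Cyp2d, chr15:82234680-82237663 held 39 PB records from 16 of 17 livers at 14 positions, out of the cluster's 326 PB sites, in 0.857% of its length. In Cyp2c, chr19:38985995-38988905 held 70 records from 14 livers at 22 positions, or 4.25% of the sites in 0.231% of the length. Both lie in windows that were denser in PB. Cyp3a, Cyp4a and Cyp2a-Cyp2b had spans of 37, 28 and 39 PB records. The fullest SB spans held 9 to 15 records from 3 to 8 livers, almost all at separate positions.

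Support was described per liver, without a test. The median support of a liver's cluster sites divided by that of all its nuclear sites averaged 0.938 ± 0.0999 (Cyp4a) to 1.02 ± 0.0953 (Cyp2c) in PB (SD, n = 17). In SB it averaged 0.924 ± 0.235 (Cyp2d) to 1.03 ± 0.118 (Cyp3a) (SD, n = 13). The lowest ratio, 0.207, was that of Cyp2c in SB liver 13, with 5 sites.

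The best supported PB site was chr4:115055980-115055983 in Cyp4a, on the minus strand in PB liver 17, with 376, or 3.06 times the median of that liver. In Cyp2c it was chr19:40170040-40170043 in PB liver 14, with 366, in Cyp2d chr15:82302955-82302958 in PB liver 16, with 347, in Cyp2a-Cyp2b chr7:26794086-26794089 in PB liver 3, with 341, and in Cyp3a chr5:145812856-145812859 in PB liver 16, with 277. These 5 sites had at most 4.55 times the median support of their livers. In SB the highest was chr7:26256503-26256504 in SB liver 13, with 324, or 3.72 times its median. The best supported SB sites of Cyp3a, Cyp2c, Cyp4a and Cyp2d had 227, 238, 208 and 258. The Cyp4a site, chr4:114865054-114865055, is also the SB position named for that cluster as found in 2 livers.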

How the data were processed

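Insertion sites were mapped in 17 PB and 13 SB livers. Per the submitters' processing notes, reads were handled with cutadapt and BWA and placed on GRCm39 (versions not given). The deposited lists hold 1 line per site and liver, with a strand and a whole number of unstated meaning, taken as reads (support, at least 3). The deposited merged tables hold counts of records per position, made by the authors, and matched the lists at all cluster positions; they were otherwise not used. How reads with several equal placements were treated is not given in the sources used here, and P450 clusters hold near-identical copies.

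Sites were counted per liver in the 5 clusters and in windows of 1 Mb and 100 kb. Features averaging 1 site or more per liver (5 for strands) entered the tests, made in R 4.3.3 with limma 3.58.1 over all features, with total nuclear sites as library size and Benjamini-Hochberg adjusted p under 0.05. Ratios were weighted by counting error. edgeR 4.0.16, limma-trend, other flanks, windows, pseudocounts and site filters were alternatives. Other values were computed with scipy 1.17.1, pandas 2.3.3 and numpy 2.4.6 under Python 3.11.15. The fits were tested on simulated counts.

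By the rule for what is named, each cluster and group has its densest and poorest window by mean, up to 3 windows per direction with the largest called difference, the position in most livers (ties by records, support and coordinate) and the best supported site. Further windows, positions and 3 kb spans were chosen after their values were seen. Other P450 loci were not analysed here. The clusters and lists were chosen with earlier results of these data known. Livers are taken as separate animals, and intervals cover counting error only, since amplified reads are not independent molecules. Same-numbered livers were not taken as pairs. Their deviations correlated above 0.1 in 10 of 13 pairs (range 0.045 to 0.19), but 0 SB livers were closest to the PB liver of their own number. The labels do not say what a number marks.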

Additional observations from a re-analysis of the deposited data

Results flagged for a closer look

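The ratio of cluster to flank density differed between PB and SB in 2 clusters by a direct test of the difference. It was lower in PB for Cyp4a (log2 difference -0.26, limma adjusted p = 0.045) and higher in PB for Cyp2a-Cyp2b (0.20, limma adjusted p = 0.041). In the genome 31.6% of features had a lower and 20.7% a higher ratio in PB by the same test. Both calls lie close to the threshold and were lost in several alternative settings, which are listed below.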

How the results depend on the processing

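For the clusters and for counts, 242 alternative values kept direction and call (values without a test, their range), and the others follow. Of the alternative values for single windows, 69 kept their call, 40 lost it and 1 turned. Calls were lost in 21 windows without positions in more than 1 liver, 9 without positions in 5 or more, 7 when centred, 2 with the replicate block (25.5 Mb, adjusted p = 0.054, and 39.4 Mb, 0.11) and 1 with livers 1 to 12. Density, PB minus SB (log2): Cyp4a passed with livers 1 to 12 (-0.23), the replicate block (-0.25), sites within 10 bp merged (-0.24), support of at least 10 (-0.25), without SB liver 13 (-0.24), edgeR (-0.26) and windows widened by 100 kb (-0.31). With widened windows Cyp3a (0.30) and Cyp2d (0.25) passed as well. Cyp2a-Cyp2b passed with TMM factors (0.25), and centring gave 0.31 for it, 0.31 for Cyp2d and 0.23 for Cyp3a. With limma-trend Cyp2c lost its call (0.16) and Cyp3a turned (-0.042). Without positions in more than 1 liver Cyp2c lost its call (0.074), and Cyp3a (-0.070), Cyp2d (-0.40) and Cyp2a-Cyp2b (-0.048) turned.

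Ratio to flanks in 1 group: Cyp2d in PB passed with a pseudocount of 1 (0.20), merged sites (0.20), widened windows (0.41), flanks of 5 Mb (0.47) and without positions in 5 or more livers (0.20), and turned with flanks of 1 Mb (-0.30) and without positions in more than 1 liver (-0.087). Cyp2d in SB passed with widened windows (0.28), flanks of 5 Mb (0.35) and without positions in more than 1 liver (0.24), and turned with flanks of 1 Mb (-0.13). Cyp4a in PB lost its call with widened windows (0.0072) and support of at least 10 (0.15), and Cyp2a-Cyp2b in SB with flanks of 1 Mb (0.11).

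PB minus SB of these ratios: Cyp4a lost its call with livers 1 to 12 (-0.25), the replicate block (-0.24), strand ignored (-0.23), flanks of 1 Mb (-0.13) or 5 Mb (-0.048), and without positions in 5 or more (-0.12) or more than 1 liver (-0.093). Cyp2a-Cyp2b lost it with no filter on windows (0.20), support of at least 10 (0.19), widened windows (0.15) and without positions in more than 1 liver (0.28). Cyp3a turned with widened windows (0.28), flanks of 5 Mb (0.074) and without positions in 5 or more (0.051) or more than 1 liver (0.014), and passed with flanks of 1 Mb (-0.35). Cyp2c turned with widened windows (0.033), flanks of 1 Mb (0.11) and without positions in 5 or more (0.028) or more than 1 liver (0.047). Cyp2d turned with widened windows (0.13), flanks of 5 Mb (0.12), merged sites (0.044), support of at least 10 (0.050) and without positions in 5 or more livers (0.021).

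Called windows, PB and SB: 6 and 5 of 27 at 200 kb, where fewer windows were tested, 16 and 11 of 90 at 50 kb, 12 and 12 with livers 1 to 12, 9 and 12 with the replicate block, 7 and 6 without positions in 5 or more livers, 0 and 0 without positions in more than 1 liver, and 19 and 4 when centred. In the genome 1450 and 2932 of 12565 windows were called at 200 kb, and 3046 and 1874 of 24057 at 50 kb. Of 20887 windows, 2298 and 3523 were called with livers 1 to 12. With the replicate block 2101 and 4836 were called, and 3583 and 791 when centred. Without positions in 5 or more livers 1599 and 1405 of 20877 were called, and without positions in more than 1 liver 343 and 80 of 20493. In the setting with 0 and 0 the window at 39.4 Mb in Cyp2c turned (-0.039). The log2 of plus over minus sites, PB minus SB, turned for Cyp3a with the replicate block (-0.013) and without positions in more than 1 liver (-0.067), and for Cyp2d in the latter (-0.14). With strand ignored, reused sites were 44.0% (Cyp3a), 45.9% (Cyp2c), 36.6% (Cyp4a) and 47.1% (Cyp2a-Cyp2b) in PB, and 4.23% (Cyp2c), 4.24% (Cyp4a), 2.49% (Cyp2d) and 7.09% (Cyp2a-Cyp2b) in SB. The settings without positions in 5 or more livers and the centred window fit were chosen after seeing the data. For fits where no value shows it, the cause was not tested. Depth limits Cyp2d most, with 2 to 37 sites per liver.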
